A study of Homo sapiens with 2 samples.

Results

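The respiratory chain genes were taken from the array by name: probes named NDUF, UQCR, ATP5 or COX followed by a digit, the 4 succinate dehydrogenase genes, CYC1, CYCS and the genes of the mitochondrial genome. This gave 112 of the 27265 gene names on the array, 12 of them mitochondrially encoded and 100 nuclear. Of these 112 genes, 105 were measured, as were 13718 genes in all, meaning that a probe stood well above background in either cell population on both arrays. RMG1 is an established cell line of clear cell ovarian adenocarcinoma, grown in medium with serum. It was sorted by the ALDEFLUOR assay, which stains live cells by aldehyde dehydrogenase (ALDH) activity, into untreated ALDH+ and ALDH- cells. RNA of 1 ALDH+ and 1 ALDH- sample was labeled from an oligo dT primer and hybridized together to 2 two-color arrays, with ALDH+ cells in Cy5 and ALDH- cells in Cy3 on the first and the dyes exchanged on the second. Both arrays therefore held the same RNA pair and were counted as 1 replicate. Values are the log2 ratio of ALDH+ over ALDH- cells, as the mean of both arrays ± the technical SD between them. For a group of genes the value is the median of the genes' means. Its ± is the SD between the group medians of the 2 arrays. No test of a difference between the populations was possible.

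The respiratory chain passes electrons from NADH (complex I) and succinate (complex II) through complex III and cytochrome c to oxygen at complex IV, and ATP synthase (complex V) uses the resulting proton gradient. Complex II is built from nuclear genes alone, whereas the other complexes hold subunits of both genomes. The mitochondrial genome is transcribed as long RNAs that are cut into separate messages, and most of its protein genes are read in one direction, with ND6 read in the other. ATP8 and ATP6 share a message, as do ND4L and ND4.

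Of the 13 protein genes of the mitochondrial genome, 12 were found by name. The remaining one, COX2, was on the array under a transcript identifier and is given beside them without being counted. The probes below are those of the lowest ratio (ND4L), the ratio nearest 0 (ND3), the genes that share a message, the gene read in the opposite direction (ND6), a probe with an uncertain position (COX1) and COX2. They are written 5′ to 3′ in the sense of the message, and capitals mark guanine, the base that the messages read in the main direction use least.
ND4L: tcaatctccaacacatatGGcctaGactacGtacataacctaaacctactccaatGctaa
ND4: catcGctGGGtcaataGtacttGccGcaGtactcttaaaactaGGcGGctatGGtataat
ATP8: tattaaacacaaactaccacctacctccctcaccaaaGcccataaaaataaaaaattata
ATP6: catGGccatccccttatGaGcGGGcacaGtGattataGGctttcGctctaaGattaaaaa
ND3: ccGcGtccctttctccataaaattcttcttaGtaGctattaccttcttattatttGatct
ND6: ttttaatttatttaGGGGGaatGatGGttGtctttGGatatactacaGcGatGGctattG
COX1: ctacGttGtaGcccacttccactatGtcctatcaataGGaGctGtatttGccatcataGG
COX2: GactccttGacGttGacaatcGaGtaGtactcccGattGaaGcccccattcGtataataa

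In the array's annotation (hg19) the ND4L probe lies at chrM:10708-10767, ND4 at chrM:11432-11491, ATP8 at chrM:8449-8508, ATP6 at chrM:8836-8895, ND3 at chrM:10200-10259 and COX2 at chrM:7987-8046, each on the plus strand and inside the coding part of its gene. The ND6 probe lies at chrM:14449-14508 on the minus strand. The ND4L probe ends with that gene's stop codon at position 10767, which the RefSeq mitochondrial genome numbers 10766, so the annotation runs 1 base ahead there. The COX1 probe is placed on the plus strand of chr1:567567-567626, a nuclear copy of mitochondrial DNA, and the array cannot tell RNA of that copy from RNA of the mitochondrial gene. No probe was mapped to a genome again, so matches of the other probes to nuclear copies were not checked. Guanine made up 1 of 60 bases in the ATP8 probe, 5 in those of ND3, ND4L and ND5, 14 in that of ND4 and 16 in that of ND6.

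All 12 mitochondrially encoded genes were lower in ALDH+ cells on both arrays, with a median log2 ratio of -1.21 ± 0.06 (2.31-fold lower). Of the 12, 9 were past 2-fold lower, against 0.707% of all measured genes. Each array was also centred on the median of all its gene spots, dim ones included, in place of dye correction by loess. Then 4 of the 12 were past 2-fold lower. With that centring their median was 0.12 on the first array and -1.75 on the second, where the medians of all measured genes were 0.56 and -0.44. The 79 measured nuclear subunits, cytochrome c included, had a median of 0.0518, near the median of all measured genes (-0.003). The medians of the single arrays were 0.0624 and 0.0566. None of these subunits was past 2-fold in either direction, against 0.707% lower and 0.211% higher among all genes. The median of the mitochondrially encoded genes minus that of the nuclear subunits was -1.26, a 2.39-fold difference, and it was -1.23 on the first array and -1.30 on the second. Arrays loaded with equal RNA give shares, so fewer mitochondria per cell, less RNA per mitochondrion and a change of the rest of the RNA cannot be told apart. The nuclear long noncoding RNAs NEAT1 (-2.42 ± 0.22) and MALAT1 (-1.66 ± 0.06) were lower in the same ALDH+ sample, and their part in the result was not tested.

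**Figure D1:**
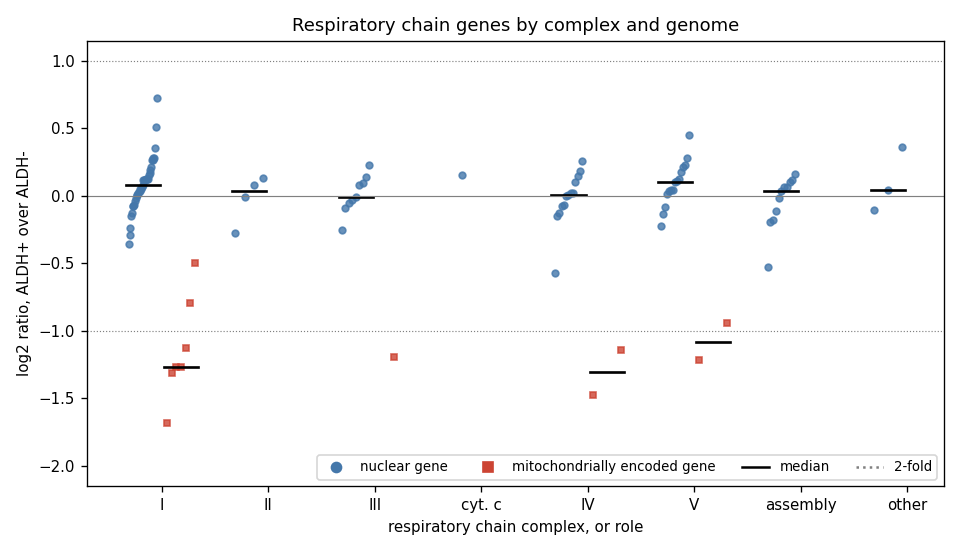
Log2 ratios of ALDH+ over ALDH- cells (y axis, mean of both arrays) for each measured respiratory chain gene by complex or role (x axis), with nuclear genes as circles, mitochondrially encoded genes as squares, black bars for medians and dotted lines at 2-fold. The nuclear medians lie between -0.01 and 0.11 in complexes I to V, and the mitochondrially encoded genes lie between -1.68 and -0.49.

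Complex I, the NADH dehydrogenase, holds 7 mitochondrially encoded subunits, and their median log2 ratio was -1.27. ND4L, a small membrane subunit, gave the lowest ratio of the 105 genes, although ND6 was lower under other processing, as given below. Its raw signals were 54263 in ALDH+ and 50990 in ALDH- cells on the first array, and 19099 in ALDH+ and 110004 in ALDH- cells on the second. The Cy5 signal was the higher on both arrays, and after normalization the ratios were -1.64 and -1.72, a mean of -1.68 ± 0.05 or 3.21-fold lower. Only 2 of the 13718 measured genes had a lower mean. ND4, which is read from the same message, gave -1.13 and -1.40, with a mean of -1.27 ± 0.19. ND4L was thus lower than ND4 by both arrays, with a difference of -0.42, although a single RNA carries both.

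ND5, one of the proton-pumping membrane subunits, gave -1.31 and -1.23 on the 2 arrays. ND2, another of them, gave -0.99 and -1.26, and ND1, which lies where quinone binds, gave -0.78 and -0.81. ND3 gave the ratio nearest 0. Its signals were 19687 in ALDH+ and 9281 in ALDH- cells on the first array and 8279 and 22161 on the second. These gave ratios of -0.36 and -0.63, a mean of -0.49 ± 0.19 or 1.41-fold lower. ND3 was therefore the one mitochondrially encoded gene under 1.5-fold, a size that 11 of the 12 passed against 4.61% of all measured genes.

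ND6, the gene of the opposite strand, gave -1.27 and -1.34 on the arrays. Its signals in ALDH+ cells were dim. They were 144 in Cy5, above the median of 45.1 of the negative control spots, and 186 in Cy3, nearer the control median of 127. In ALDH- cells they were 338 in Cy3 and 469 in Cy5. With the array software's own log ratio the mean of ND6 was -2.11 in place of -1.31, below every gene of the main strand (ND4L was at -1.70), and with median centring it was again the lowest at -1.33 (ND4L was at -1.21). Its place among the mitochondrially encoded genes therefore depended on the processing, and its direction was the same.

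Complex III, the cytochrome bc1 complex, has 1 mitochondrially encoded subunit, CYTB, which binds the hemes b. Its signals were 34496 in ALDH+ and 26725 in ALDH- cells on the first array and 14326 and 54892 on the second. The ratios of -1.25 and -1.14 gave a mean of -1.19 ± 0.08, or 2.29-fold lower. In complex IV, cytochrome c oxidase, COX1 and COX3 were measured by name. COX1, the subunit that holds the oxygen-reducing center, had signals of 16886 in ALDH+ and 15706 in ALDH- cells on the first array and 6736 and 34546 on the second. Its mean was -1.48 ± 0.13, second to ND4L, with the limit of its probe's position given above. COX3 gave -1.16 and -1.12. COX2, the subunit that takes electrons from cytochrome c, gave -0.76 and -1.10, a mean of -0.93 ± 0.24, and was on the side of the other mitochondrially encoded genes.

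In complex V, ATP6, part of the proton channel, had signals of 30052 in ALDH+ and 22536 in ALDH- cells on the first array and 11539 and 48213 on the second. Its ratios were -1.17 and -1.26, with a mean of -1.22 ± 0.07 or 2.33-fold lower. ATP8, read from the same message, gave -0.93 and -0.95. ATP8 was higher than ATP6 by 0.28, by 0.24 on the first array and by 0.31 on the second. Pairs of genes on a single RNA therefore differed by up to 0.42 on the log2 scale, and differences of that size between mitochondrially encoded genes were also seen between probes of 1 message.

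Ordered from the lowest ratio, the genes were ND4L, COX1, ND6, ND5, ND4, ATP6, CYTB, COX3, ND2, ATP8, ND1 and ND3. From ND6 to ND2 neighbors differed by at most 0.05, less than the arrays differed for one of each pair, and most of these pairs changed order between the arrays. ND4L below COX1, ATP8 below ND1 and ND1 below ND3 were wider apart than the arrays were for either gene. Along the genome the extremes were neighbors: ND3 and ND4L, which stand next to each other as protein genes, differed most.

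**Figure D2:**
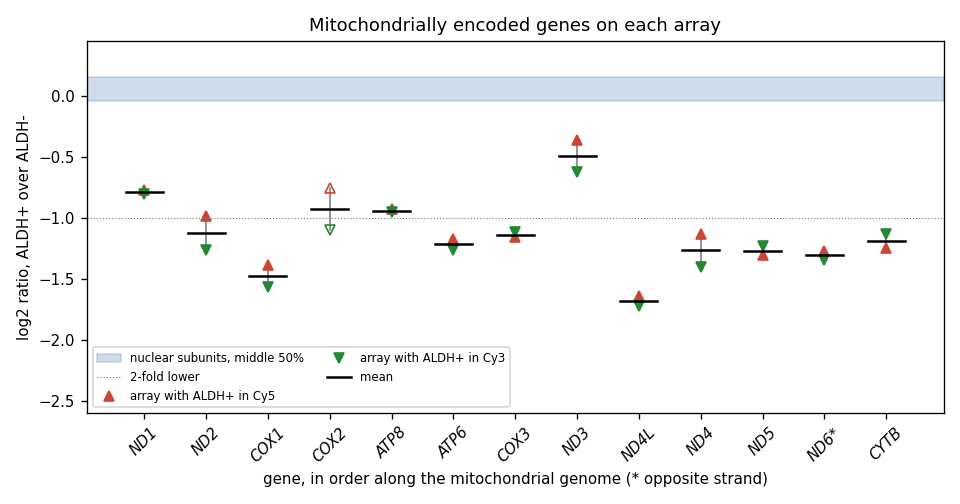
Log2 ratios of ALDH+ over ALDH- cells (y axis) for each mitochondrially encoded gene in the order of the mitochondrial genome (x axis), with a triangle for each array, a black bar for their mean, open triangles for COX2 and a band for the middle 50% of the nuclear subunits (-0.05 to 0.15). All triangles lie below the band, from -1.72 for ND4L to -0.36 for ND3.

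Since each population was read in both dyes, the raw signals could also be set side by side within a dye, with no background correction or normalization. Each such ratio takes its 2 signals from different arrays, so differences in brightness between the arrays remain in it. In Cy3 the ALDH- signal was a median of 1.86 times the ALDH+ signal for the 12 mitochondrially encoded genes (1.12 to 2.67) and 0.836 times for the 79 nuclear subunits (0.556 to 1.23). In Cy5 it was 1.67 times (1.13 to 3.26) and 0.764 times (0.492 to 1.34). ND3 was the mitochondrially encoded gene nearest the nuclear subunits in both dyes, at 1.12 times in Cy3 and 1.13 times in Cy5. The other 11 lay above every nuclear subunit in both dyes. On the log2 scale the raw medians of the 2 genomes differed by -1.15.

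**Figure D3:**
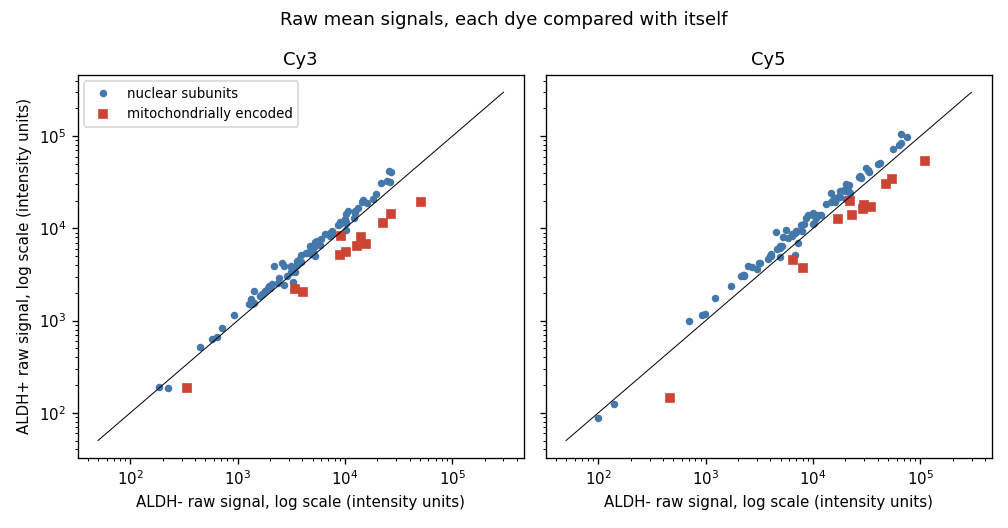
Raw mean signals of ALDH- cells (x axis, log scale) and ALDH+ cells (y axis, log scale) in intensity units, in Cy3 (left) and Cy5 (right), for 79 nuclear subunits (circles) and 12 mitochondrially encoded genes (squares), with a line at equal signal. All squares lie below the line in both dyes, and most circles lie above it.

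The 37 nuclear subunits of complex I had a median log2 ratio of 0.08 and ran from -0.36 to 0.72. Of them, 9 were lower and 19 higher on both arrays, against 36.2% and 33.6% of all measured genes. NDUFA11, a membrane-arm subunit, was the highest. Its signals were 9127 in ALDH+ and 2185 in ALDH- cells on the first array and 3926 and 4493 on the second, which gave 0.87 and 0.58 and a mean of 0.72 ± 0.20 or 1.65-fold higher. It was 97th from the highest of all measured genes. NDUFA7, an accessory subunit, followed at 0.51 ± 0.21. NDUFB1, another accessory subunit, was the lowest at -0.36 ± 0.12. Of the core subunits of the peripheral arm, which carry the flavin and iron-sulfur clusters, NDUFV1 gave -0.06 ± 0.07, NDUFV2 0.05 ± 0.05 and NDUFS1 -0.29 ± 0.04. ND3, the highest mitochondrially encoded subunit of the complex, was below NDUFB1 on the mean and on the second array (-0.63 and -0.27), but above it on the first (-0.36 and -0.44), where the 2 genomes overlapped. The complex I medians of the 2 genomes differed by -1.34.

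Complex II, succinate dehydrogenase, has no mitochondrially encoded part. SDHA, the flavoprotein, gave -0.21 and -0.34 on its brightest probe, a mean of -0.27 ± 0.09. Its dimmer probes had means of -0.04, 0.03 and -0.01. SDHB, the iron-sulfur subunit, gave 0.20 and 0.07. Of the membrane anchors, SDHC gave -0.16 and 0.15 and SDHD 0.01 and 0.15. The median was 0.04, and all 4 genes were nearer 0 than ND3.

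The 9 nuclear subunits of complex III had a median of -0.01, with CYC1, which carries the heme that reduces cytochrome c, the highest at 0.23 ± 0.01. UQCRH, the hinge protein, was the lowest at -0.25 ± 0.70, and its arrays pointed opposite ways (-0.75 and 0.24) on signals of 88.4 to 224, so no direction was read from it. The Rieske iron-sulfur protein UQCRFS1 gave -0.06 ± 0.11, and the core proteins UQCRC1 and UQCRC2 gave 0.14 ± 0.14 and 0.09 ± 0.25. The ratio of CYTB minus the nuclear median was -1.18. CYCS, the mobile carrier cytochrome c, gave 0.15 and 0.17.

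Complex IV had 13 measured nuclear subunits with a median of 0.01. COX4I1, the common form of subunit 4, was the highest at 0.26 ± 0.30, with 0.47 on one array and 0.05 on the other. COX6B2, the form of subunit 6B known from testis, was the lowest of all nuclear members. Its signals were 5084 in ALDH+ and 3248 in ALDH- cells on the first array and 2635 and 6802 on the second, which gave -0.54 and -0.60. A second and dimmer probe of COX6B2 gave 0.17 and -0.21. COX6B2 at -0.57 and the copper chaperone COX19 at -0.53 were the nuclear members whose mean lay below that of ND3, but neither was below it on both arrays, and COX6B2 was at -0.30 with its probes averaged. The general form COX6B1 gave 0.02 ± 0.11.

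Both forms of subunit 6A were measured, and their difference was within the spread of the arrays. COX6A1 gave -0.15 ± 0.15 and the muscle form COX6A2 gave 0.02 ± 0.16 on a dim probe. COX7A2 gave -0.13 ± 0.15, COX8A 0.18 ± 0.17 and NDUFA4 0.14 ± 0.24, and their partners COX7A1, COX8C and NDUFA4L2 were not well above background in this line, nor were COX4I2 and COX7B2. COX10, an enzyme of heme a synthesis, and COX18, which helps to insert COX2 into the membrane, were the remaining genes among the 7 that were not measured. Between the genomes, the complex IV medians differed by -1.31.

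In complex V the 15 nuclear subunits had a median of 0.11, of which 9 were higher and 2 lower on both arrays, against 33.6% and 36.2% of all measured genes. ATP5C1 (now ATP5F1C), the central stalk subunit gamma, was the highest, with 0.40 and 0.50 on the arrays and a mean of 0.45 ± 0.07. The catalytic subunit beta, ATP5B, gave 0.18 on both arrays, and subunit alpha, ATP5A1, gave 0.12 ± 0.17. ATP5H, of the peripheral stalk, was the lowest at -0.23 ± 0.37, and its arrays pointed opposite ways (-0.49 and 0.04). The 3 genes that encode subunit c of the rotor ring gave 0.02 ± 0.07 (ATP5G1), -0.08 ± 0.06 (ATP5G2) and 0.11 ± 0.09 (ATP5G3), and ATP5G2 was below ATP5G3 on both arrays. ATP6, which works against that ring, was lower than each of them by both arrays. The medians of the 2 genomes differed by -1.19 in complex V.

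Of the members that build the complexes without being part of them, 11 were measured, with a median of 0.03. COX19 was the lowest at -0.53 ± 0.28, on signals of 219 to 391, and COX15, which makes heme a, was the highest at 0.16 ± 0.09 on signals of 111 to 193. COX11, a copper chaperone, gave -0.01 ± 0.04 on its brightest probe and -0.57 and 0.29 on the others. The names also took in ATP5L2 (0.36 ± 0.02), ATP5S (-0.10 ± 0.02) and COX4NB (0.05 ± 0.005), the last of which is no part of the chain and is now named EMC8. The ATP5L2 value came from a bright probe, and the other probe of that name was not well above background. Among 17 members with several measured probes, those of 3 genes, COX11, COX6B2 and UQCR10, differed by more than 0.5. Where a probe was spotted 10 times on an array, 6 to 10 spots remained after outliers were left out. The SD between those spots was 0.03 to 0.07.

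**Figure D4:**
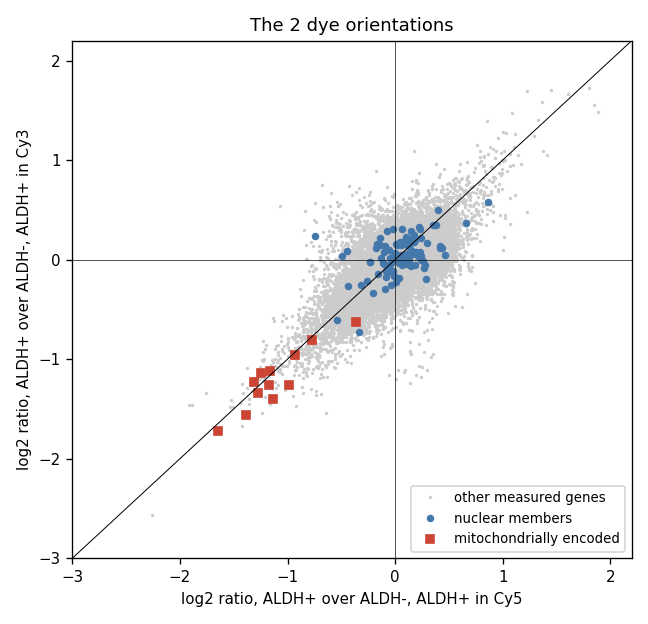
Log2 ratios of ALDH+ over ALDH- cells with the ALDH+ sample in Cy5 (first array, x axis) and in Cy3 (second array, y axis) for 13718 measured genes (dots), 93 nuclear members (circles) and 12 mitochondrially encoded members (squares), with a line at equal ratios. The squares follow the line, and each differs between the arrays by at most 0.28, whereas the nuclear members gather around 0.

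Genes that act on mitochondrial RNA and DNA or control nuclear respiratory genes were taken from lists. Of 26 measured genes of mitochondrial RNA synthesis and processing, 10 were lower and 7 higher on both arrays, shares near the 36.2% and 33.6% of all measured genes, and their median was -0.03. None was past 2-fold on the mean. The mitochondrial RNA polymerase POLRMT gave 0.02 and -0.11, its partner TFB2M 0.20 and 0.05, and TFAM, which packages mitochondrial DNA and starts transcription, -0.46 and -0.20. LRPPRC, which binds and stabilizes mitochondrial messages, gave -0.48 and -0.41, and its partner SLIRP gave -0.07 and 0.04. FASTKD5, which is needed to process messages that lack a flanking transfer RNA, was the lowest, at -0.70 and -1.19 with a mean of -0.94 ± 0.34. PRORP, the nuclease of mitochondrial RNase P, was the highest at 0.33 ± 0.27.

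For mitochondrial DNA upkeep, 11 genes were measured with a median of -0.04. The lowest was POLG2, the accessory subunit of the mitochondrial DNA polymerase, at -0.40 ± 0.03, and the catalytic subunit POLG gave -0.35 ± 0.10. DGUOK, which salvages deoxyguanosine, was the highest at 0.18 ± 0.20. Of the nuclear regulators, 6 were measured, and 5 were lower on both arrays, against 36.2% of all genes, with a median of -0.27. PPRC1, a coactivator related to PGC-1alpha, was the lowest at -0.47 ± 0.07, and GABPA, the DNA-binding subunit of an ETS factor, gave -0.27 ± 0.02. GABPB2, a partner subunit, was the highest at 0.17 ± 0.05. NRF1, PPARGC1A and PPARGC1B were not well above background.

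Assembly factors with other names (29 measured) had a median of 0.10, from BCS1L (-0.33 ± 0.05), which inserts the Rieske protein, to PET100 (0.58 ± 0.01), a factor of complex IV. Proteins of import, quality control and the mitochondrial membranes (24 measured) had a median of 0.20, and 15 of them were higher on both arrays, against 33.6% of all genes. The voltage-dependent channel VDAC2 was the highest at 0.64 ± 0.18, and the chaperone HSPA9 was the lowest at -0.59 ± 0.07. No gene of these lists was past 2-fold.

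**Figure D5:**
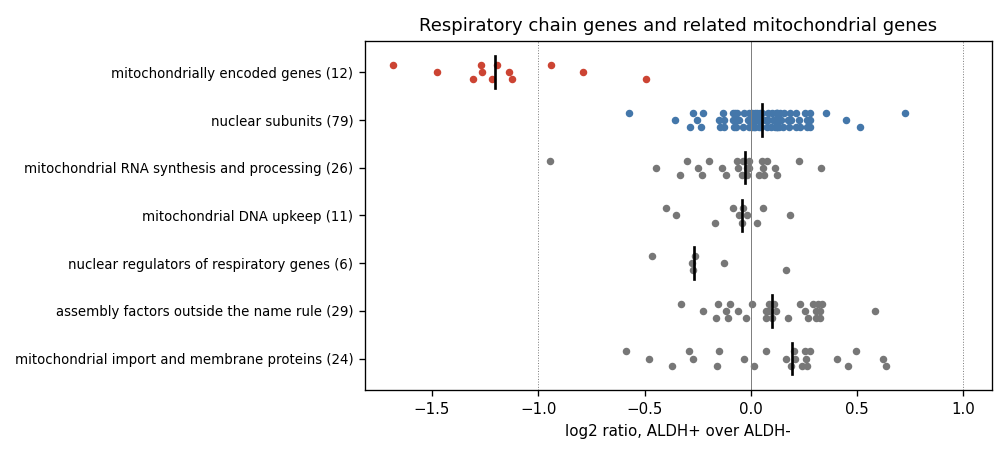
Log2 ratios of ALDH+ over ALDH- cells (x axis, mean of both arrays) for the genes of each list (y axis, number measured in brackets), with a point per gene, a black bar for the median and dotted lines at 2-fold. The medians of the nuclear lists lie between -0.27 and 0.20, and that of the mitochondrially encoded genes lies at -1.21.

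The promoters of the nuclear subunits were searched on both strands for 3 short motifs, in the 300 bases around the start site that RefSeq gives for 69 of the 84 genes (GRCh38.p14). The NRF1 motif GCATGCGC was in 14 of the 69 promoters (20.3%) and in 3.27% of 27305 promoters of all genes. The ETS motif CCGGAAGT, which GABPA binds, was in 9 (13.04%) against 4.44%, and the YY1 motif AAGATGGC in 11 (15.9%) against 3.03%. No motif lies within another. COX5B and SDHD held both the NRF1 and the ETS motif, and CYCS and ATP5C1 held the NRF1 motif. These are matches of letters and do not show that a factor was bound.

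Of 6 marker genes of the line, all were measured, from PAX8 (-0.74 ± 0.14) to KRT8 (0.06 ± 0.24). Of the leukocyte and blood markers, PTPRC (0.03 ± 0.22) and CD14 (0.45 ± 0.19) were measured among 8 with a probe, and CD3E and HBB were not well above background. None of 5 fibroblast markers was. On each array 43118 gene spots were read, none of them saturated, and 519 to 531 were left out as outliers.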

How the data were processed

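The members and the lists were chosen with earlier results of these data known. For each array the authors deposited each spot's intensity and local background, without normalization, as read by Feature Extraction (10.7.3.1 in the file headers, 8.5.1.1 in the submitters' processing notes), together with that software's log10 ratio of the dyes after its own background and dye correction. A joined table that the authors deposited holds the same log10 ratio for both arrays, and 4 further signal columns of it were not used. The study's methods name AMOC2 as the source of the RNA, but RMG1 is the line in the labels and results, and it is the name kept here.

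Ratios were computed with limma 3.58.1 in R 4.3.3: background was corrected by normexp (offset 50) and dyes by loess on each array separately. Outlier spots entered these corrections and were left out of the averages that followed. Spots of a probe were averaged, ratios were turned to ALDH+ over ALDH- cells, and both arrays were averaged. Each gene took the value of the brightest among its measured probes, those for which, in ALDH+ or in ALDH- cells, more than 50% of spots passed the software's background flag on each array. RefSeq accessions gave symbols to 25422 probes. The 2-fold threshold is that of the study. Later steps used Python 3.11.15, numpy 2.4.6 and pandas 2.3.3, and the ratio step was tested on simulated data. Named were all mitochondrially encoded genes, nuclear members past 2-fold, the highest and lowest of each complex and list, paired isoforms and the SDH genes, and a few others were named for their role after their values were seen. With 1 sort of each population, p-values and the spread between cultures were not available, and the number of arrays limits the precision. The NRF1 and YY1 promoter motifs were shortened after a first search with longer forms, which matched fewer promoters of members and of all genes.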

Additional observations from a re-analysis of the deposited data

How the results depend on the processing

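With each array centred on the median of all its gene spots and no loess, the median of the mitochondrially encoded genes was -0.81. It was 0.12 on the first array and -1.75 on the second, against 0.56 and -0.44 for all measured genes. The nuclear subunits had a median of 0.34, and the difference between the genomes was -1.15. In place of 9, 4 members (ND4L, COX1, ND5 and ND6) were past 2-fold lower, and the cause was not tested. Raw signals of the same dye, added after seeing the data, gave a difference of -1.15. The nuclear median, whose 2 arrays differed little, was 0.0453 when background was left in, 0.0714 at an offset of 10, 0.0604 by the software's ratios, to which the joined table is identical, 0.0624 on the first array, 0.0566 on the second and 0.0816 when a gene's probes were averaged. At 1.5-fold 1 member was higher (NDUFA11). On either array alone 8 and 9 members were past 2-fold lower. ND6 was the one named gene or list whose fold ratio, as opposed to its log2 value, moved by over 1.5 times. Its log2 shift was -0.80, to -2.11 with the software's log ratio. Smaller log2 shifts were seen in other genes, such as COX19 from -0.53 to -0.85 with the same ratio. In 132 values of the 12 mitochondrially encoded genes under the alternatives, 0 were above 0. For median centring this count took the mean of both arrays and not the first array alone, where their median was 0.12. Adding COX2 or leaving out COX1 moved the median to -1.19 each. No paired analysis was possible because each population was sampled once.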
